A study of Mus musculus with 28 samples.

Results

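The nuclear factor I (NFI) family of the mouse comprises Nfia, Nfib, Nfic and Nfix, and its members were taken by gene symbol from gene tables of a Myt1l knockout mouse line. All 4 genes were listed in both tables, among 13846 genes of the embryonic cortex table and 14104 genes of the adult table, and all 4 passed the filter on low values. The libraries were bulk RNA sequencing of embryonic cortex (E14.5) from 6 wild-type (WT), 6 heterozygous (Het) and 4 homozygous mutant (Hom) samples, and of adult prefrontal cortex (PFC) from 6 WT and 6 Het samples. By label, the E14.5 groups held 5 females and 1 male (WT), 3 and 3 (Het) and 3 and 1 (Hom), and both adult groups held 3 of each sex. The labels name the genotype and the sex but not the allele, the strain background, the adult age, or whether samples were separate animals, so p-values measure the spread between these samples. MYT1L, the protein of Myt1l, is a neuronal DNA-binding factor with zinc fingers, and the stated aim was to learn how its loss alters chromatin and the transcriptome. No chromatin data were analysed here.

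NFI proteins bind DNA as dimers through a conserved amino-terminal domain and can activate or repress transcription. In the developing cortex, NFIA, NFIB and NFIX are known for moving radial glia, the neural stem cells of the embryonic cortex, from self-renewal towards neuronal and glial differentiation, and NFIA is known as a starter of gliogenesis. NFIC is best known for its role in tooth root formation.

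The genes lie on 3 chromosomes of GRCm38 (the assembly also called mm10) in the GENCODE vM21 annotation, where each is annotated as protein coding. Nfia (ENSMUSG00000028565) is at chr4:97772734-98118874 on the plus strand. Nfib (ENSMUSG00000008575) is at chr4:82290173-82705750, Nfic (ENSMUSG00000055053) at chr10:81396186-81455635 and Nfix (ENSMUSG00000001911) at chr8:84699876-84800344, all on the minus strand. The merged exons span 10891 bp for Nfia, 14957 bp for Nfib, 6630 bp for Nfic and 7351 bp for Nfix. The GC content of the transcripts was 42.7% for Nfia and 43.3% for Nfib, against 57.4% for Nfic and 57.1% for Nfix. Nfix shares 137 bp of exon with G430095P16Rik and 4 bp with Lyl1, Nfic 72 bp with Gm16104 and Nfia 4 bp with E130114P18Rik, all on the opposite strand. Strand use in counting is not stated, so reads of these shared stretches cannot be told apart.

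RefSeq promoter entries (GRCm38.p6) were found for 3 of the 4 genes, with 1 entry for Nfia, 1 for Nfic and 4 for Nfix. Printed below are the Nfia entry, since Nfia had the largest E14.5 genotype estimate, and the first Nfix entry, as an example of a window that holds the motif searched. Each line gives the 250 bases before an annotated start, 5′ to 3′ on the gene's strand. Capitals mark AAGTT, the core motif of the MYT1 family, searched on both strands.
Nfia, chr4:97581693-97581942, plus strand: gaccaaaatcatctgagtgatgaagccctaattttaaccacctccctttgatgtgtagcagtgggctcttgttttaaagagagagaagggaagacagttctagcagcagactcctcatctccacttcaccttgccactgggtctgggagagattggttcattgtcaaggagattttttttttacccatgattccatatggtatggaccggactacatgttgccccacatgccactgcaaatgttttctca
Nfix, first entry, chr8:84780083-84780332, minus strand: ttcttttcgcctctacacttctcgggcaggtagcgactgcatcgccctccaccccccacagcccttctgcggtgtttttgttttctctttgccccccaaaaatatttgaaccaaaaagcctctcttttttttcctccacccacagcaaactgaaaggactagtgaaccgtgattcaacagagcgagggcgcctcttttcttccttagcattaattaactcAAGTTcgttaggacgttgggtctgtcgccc
The Nfia window held no AAGTT on either strand. The first Nfix window held 1 and the Nfic window 1, and the other 3 Nfix windows held none, so the 2 printed windows show no contrast between the genes. Among all 32851 promoters of this table, 35.3% held at least 1 AAGTT in the same 250 bases. TTGGC, the core of the NFI site, was in 41.5% of all promoters. It occurred 1 time each in the second and the fourth Nfix windows and in none of the other 4. The Nfia start of RefSeq lies 190791 bp before the GENCODE vM21 gene start, and the first Nfix start 20262 bp inside the GENCODE gene. These matches describe letters only.

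Myt1l was read first as a check of the genotype labels. It averaged 55.5 ± 8.16 CPM (counts relative to library size; SD, n = 6) in E14.5 WT, 42.8 ± 11.1 (n = 6) in Het and 20.2 ± 2.35 (n = 4) in Hom. It was lower in Hom (log2 change -1.43, limma adjusted p = 1.1e-04), whereas Het against WT did not pass at E14.5 (-0.39, adjusted p = 0.125). In the PFC it averaged 158 ± 8.48 CPM in WT and 114 ± 6.70 in Het (n = 6 each) and was lower in Het (-0.47, adjusted p = 1.4e-04). At E14.5, 2 Het libraries went against their labelled sex. The library labelled Het F10 (female) had 21.6 CPM of Ddx3y, a Y-linked gene, and the library labelled Het M11 (male) had 0 CPM. Tests of the members, of the list genes called in Het, and the shares and correlations below are given with and without them. Without them, Myt1l averaged 48.9 ± 7.76 CPM in Het (SD, n = 4) and ran from 41.1 to 59.5 CPM. The mean of all 6 was 42.8 CPM, so the 2 left out had less Myt1l on average than the other 4. Whether their genotype labels hold was not tested. The depth of the libraries is unknown because the deposited values had been adjusted. Tbr1, a transcription factor of cortical projection neurons that checks the labelled tissue, had 34.4 ± 3.34 CPM in E14.5 WT and 26.4 ± 4.36 CPM in PFC WT (SD, n = 6 each). The mature astrocyte genes Gfap and Aqp4 were near 0 in E14.5 WT, at 0.114 ± 0.196 and 0.676 ± 0.295 CPM, against 139 ± 15.4 and 109 ± 15.8 CPM in PFC WT (SD, n = 6).

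In the WT embryo, Nfix, Nfia and Nfib were abundant and Nfic was scarce. Levels are compared between genes as CPM per kilobase of merged exon, and the order of neighbours depends on that choice of length. Nfix stood at 71.7 ± 12.1 (SD, n = 6), Nfia at 64.3 ± 6.09, Nfib at 40.9 ± 3.36 and Nfic at 1.90 ± 0.375. The WT libraries of Nfix and Nfia overlapped, from 57.3 to 92.3 and from 54.7 to 70.3. Ranges, here and in the adult, ignore that the genes were read in the same libraries, and no paired test of their order was made. By this length all Nfib libraries lay below all Nfia libraries, at 36.6 to 44.7, and all Nfic libraries below those. Per kilobase of the longest transcript, a length tried after seeing the data, WT means were 96.2 ± 16.2 for Nfix, 73.6 ± 6.97 for Nfia, 67.1 ± 5.51 for Nfib and 2.02 ± 0.399 for Nfic (n = 6). By that length Nfib (60.1 to 73.3) and Nfia (62.6 to 80.3) overlapped, and Nfic remained the lowest. Among all 13840 annotated genes, the WT mean per kilobase placed Nfix at the 94.0th percentile, Nfia at the 93.5th, Nfib at the 90.8th and Nfic at the 45.8th.

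In the adult WT PFC, Nfia and Nfix stood above Nfic and Nfib by either length. Nfia averaged 11.0 ± 1.43 CPM per kilobase (n = 6), Nfix 10.3 ± 1.26, Nfic 4.54 ± 0.543 and Nfib 4.14 ± 0.501. Nfia (9.29 to 13.4) and Nfix (8.80 to 11.8) overlapped. Nfic (4.08 to 5.51) and Nfib (3.56 to 4.75) also overlapped, and the upper and lower pairs did not overlap each other. Per kilobase of the longest transcript the order within each pair turned, with Nfix at 13.8 ± 1.70, Nfia at 12.6 ± 1.64, Nfib at 6.80 ± 0.821 and Nfic at 4.83 ± 0.577 (n = 6). The members of each pair again overlapped. By merged exon, their percentiles among 14098 genes were 73.6 for Nfia, 72.5 for Nfix, 56.8 for Nfic and 54.8 for Nfib.

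Side by side, 3 members had lower WT levels in the adult and Nfic had a higher one. Mean CPM in WT was 5.84-fold higher in the embryo than in the adult for Nfia, 9.88-fold for Nfib and 6.95-fold for Nfix, and no adult WT library reached the lowest embryonic one. For Nfic the adult WT mean was 2.40-fold the embryonic one, again without overlap. The share of all genes that separate in this way was not counted, so the separation is not read as particular to these genes. The tables were normalized separately and differ in tissue region as well as age, so no test was made across them. In bulk tissue, fewer cells of a type and less RNA per cell cannot be told apart.

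The make-up of the family differed accordingly. Of the summed CPM per kilobase of merged exon of the 4 genes, Nfic made up 1.06% ± 0.204 (SD, n = 6) in E14.5 WT and 15.1% ± 1.22 in PFC WT. Nfib made up 23.0% ± 1.26 and 13.8% ± 1.63. Within the E14.5 cortex, the Nfia share was 36.1% ± 2.02 in WT, 42.2% ± 4.67 in Het and 42.4% ± 2.36 (n = 4) in Hom. The Nfix share was 39.9% ± 2.63, 34.3% ± 4.16 and 34.8% ± 3.14. The Hom libraries ran from 39.9% to 45.5% for Nfia and did not overlap the WT libraries, at 33.8% to 39.1%. The Nfix shares of Hom (31.1% to 38.7%) and WT (37.8% to 44.5%) overlapped. Without the 2 libraries that went against their labelled sex, the Het shares were 40.5% ± 2.66 for Nfia and 36.2% ± 3.39 for Nfix (n = 4). With the longest transcript as the length, the Nfia share was 30.9% ± 1.81 in WT and 36.8% ± 2.12 in Hom, again without overlap. By that length Nfib made up 28.2% ± 1.49 in E14.5 WT and 17.9% ± 1.98 in PFC WT, and Nfic 0.847% ± 0.162 and 12.7% ± 1.02. No test is given for shares, which are scores over the members. The Nfia shares rest on the same values as the Nfia levels below and are no separate evidence. In those levels each Hom library also lay above each WT library, as for 4.8% of all genes tested.

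**Figure D1:**
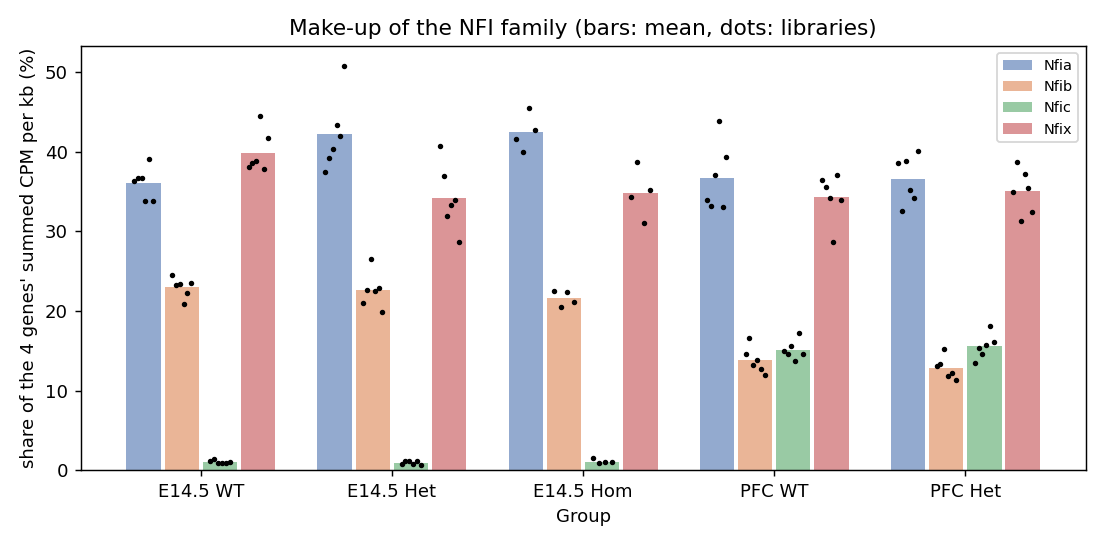
Share of each NFI gene in the summed CPM per kilobase of merged exon of the 4 genes (vertical axis, %) in each group (horizontal axis), with bars at the mean and dots for libraries. Nfic averages 1.06% in E14.5 WT and 15.1% in PFC WT, and the Nfia share averages 36.1% in E14.5 WT and 42.4% in Hom.

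Nfia, the member linked to the start of gliogenesis, had the largest E14.5 difference of the family. In WT it ran from 596 to 765 CPM with a median of 714 (mean 701 ± 66.4, SD, n = 6). In Het it ran from 686 to 1188 CPM with a median of 873 (mean 884 ± 176, n = 6). The 4 Hom libraries had 771 CPM (F01), 915 CPM (F04), 1008 CPM (F09) and 981 CPM (M02), a mean of 919 ± 106. Each Hom library lay above each WT library, the closest pair being 771 and 765 CPM. Among all 12429 genes tested, 4.8% were above WT in this way and 5.11% below. Of the Het libraries, 5 of 6 were above the WT mean and 4 of 6 above the highest WT library. The Het and Hom ranges overlapped.

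On the log2 scale, Nfia was 0.38 higher in Hom than in WT (SE 0.12, 95% interval 0.13 to 0.64), which did not pass over all genes (limma adjusted p = 0.0635). Het against WT gave 0.29 (SE 0.11, interval 0.05 to 0.54, adjusted p = 0.136), and Hom against Het 0.09 (SE 0.12, interval -0.17 to 0.35, adjusted p = 0.98). Across all genes, 7.6% were called in Hom against WT, 5.83% in Het against WT and 0.00805% in Hom against Het, and 0 of the 4 NFI genes were called in any of these. At an unadjusted p under 0.05, 1 member, Nfia, passed in Hom against WT and in Het against WT, where 23.2% and 22.3% of all genes did. By p, Nfia ranked 1137th in Hom and 1786th in Het of 12429 genes. With voom and TMM scaling, 0 of the 4 NFI genes were called at an adjusted p under 0.05.

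Nfia was not called in the fit of all libraries, and whether it passed depended on which libraries entered the fit. Without the 2 libraries that went against their labelled sex, Hom against WT gave 0.39 (adjusted p = 0.0128). Het against WT then gave 0.28 (adjusted p = 0.0778) and Hom against Het 0.11 (adjusted p = 0.8), with a Het mean of 844 ± 111 CPM (SD, n = 4). Hom against WT gave, with the Het libraries left out of the fit altogether, 0.39 (adjusted p = 0.00763). It also passed without Het M11 (0.39, adjusted p = 0.0144), without Het M07 (0.38, adjusted p = 0.0226) and without Hom F01 (0.46, adjusted p = 0.049). Without Het M07, Het against WT passed as well (0.35, adjusted p = 0.0258). With each library corrected for GC content and length, Hom against WT was 0.31 (adjusted p = 0.229). Library identifiers share prefixes whose meaning the labels do not give. Within the larger prefix set, Nfia in Hom exceeded WT by 0.33 (3 against 4 libraries), and within the smaller one by 0.54 (1 against 2).

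Nfib, which acts with NFIA in the cortical midline and in glial differentiation, had similar levels in the 3 genotypes. It ran from 548 to 668 CPM in WT (median 627, mean 612 ± 50.2, SD, n = 6). In Het it ran from 513 to 690 CPM (median 672, mean 644 ± 66.3). The Hom libraries had 573, 646, 682 and 668 CPM in the order F01, F04, F09 and M02. The lowest of all libraries was Het M07, and 4 of 6 Het libraries lay above the highest WT library. The differences were 0.07 for Hom (SE 0.08, interval -0.09 to 0.24, adjusted p = 0.619) and 0.09 for Het (SE 0.08, interval -0.07 to 0.24, adjusted p = 0.533).

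Nfix, linked to later cortical progenitors and adult neural stem cells, did not pass either. WT libraries ran from 421 to 679 CPM (median 528, mean 527 ± 89.0, SD, n = 6) and Het libraries from 375 to 644 CPM (median 471, mean 485 ± 101). The Hom libraries had 430, 599, 464 and 545 CPM in the same order as above. The 3 groups overlapped widely. The log2 difference was -0.04 for Hom (SE 0.16, interval -0.38 to 0.30, adjusted p = 0.918; the sign turned under the GC and length correction, 0.01) and -0.11 for Het (SE 0.15, interval -0.43 to 0.21, adjusted p = 0.728).

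Nfic was at a low level in the embryo, from 10.0 to 17.3 CPM in WT (median 12.0, mean 12.6 ± 2.49, SD, n = 6) and from 9.46 to 16.1 CPM in Het (median 11.5, mean 11.9 ± 2.33). The Hom libraries had 17.3, 11.9, 13.1 and 13.6 CPM, again in the order F01, F04, F09 and M02. No Hom library exceeded the highest WT library. Hom against WT gave 0.17 (SE 0.15, interval -0.15 to 0.48, adjusted p = 0.552) and Het against WT -0.03 (SE 0.14, interval -0.32 to 0.27, adjusted p = 0.941), whose sign turned under the same correction (0.02). In Hom against Het, Nfic gave 0.19 (interval -0.13 to 0.52), Nfix 0.07 (-0.28 to 0.42) and Nfib -0.01 (-0.18 to 0.16), with adjusted p of 0.959, 0.983 and 0.994. Without the 2 libraries that went against their labelled sex, Het against WT was 0.07 for Nfib (adjusted p = 0.66), -0.00 for Nfix (adjusted p = 0.989) and 0.01 for Nfic (adjusted p = 0.974), the last with its sign turned. Hom against WT was then 0.07 for Nfib, -0.03 for Nfix and 0.16 for Nfic, with adjusted p of 0.618, 0.927 and 0.544. Hom against Het was 0.00 for Nfib and -0.03 for Nfix, both with turned signs, and 0.15 for Nfic, with adjusted p of 0.996, 0.978 and 0.84.

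**Figure D2:**
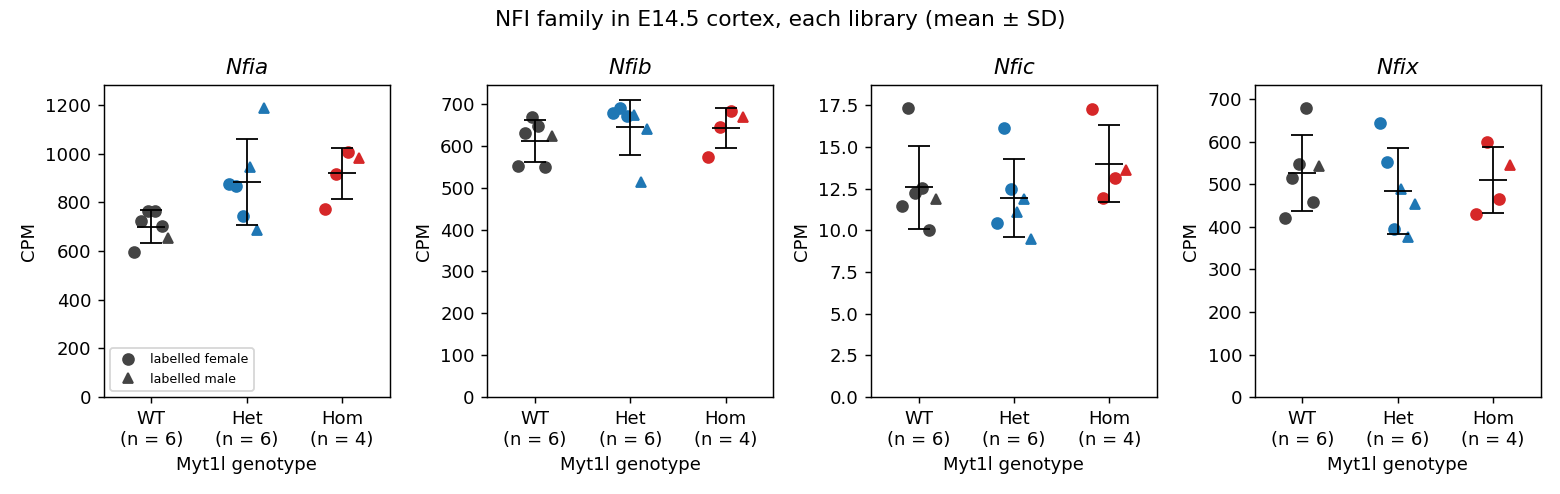
CPM of each NFI gene (vertical axes) by Myt1l genotype (horizontal axes) in E14.5 cortex, 1 point per library, circles for labelled females and triangles for labelled males, with mean ± SD. For Nfia the 4 Hom libraries sit between 771 and 1008 CPM and the 6 WT libraries between 596 and 765 CPM.

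In the adult PFC, all 4 members had positive Het against WT estimates, and none passed over all genes. The median of the 4 log2 changes was 0.22, against 0.01 over all 12870 genes tested, of which 0.404% were called. At an unadjusted p under 0.05, 2 members passed, Nfic and Nfix, where 13.6% of all genes did. With voom and TMM scaling, 0 of the 4 members were called at an adjusted p under 0.05. The 4 estimates come from the same libraries and are not independent of each other. Each stayed positive under every alternative run, scalings included.

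Nfic had the smallest p of the family in the adult. WT libraries ran from 27.1 to 36.5 CPM (median 28.5, mean 30.1 ± 3.60, SD, n = 6) and Het libraries from 32.9 to 39.1 CPM (median 35.4, mean 35.7 ± 2.73, n = 6). All 6 Het libraries exceeded the WT mean and 3 of 6 exceeded the highest WT library, so the groups overlapped. The log2 difference was 0.24 (SE 0.08, interval 0.07 to 0.42, adjusted p = 0.182). By p it ranked 510th of 12870 genes.

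Nfix ran from 64.7 to 87.1 CPM in WT (median 73.7, mean 75.8 ± 9.29, SD, n = 6) and from 72.7 to 113 CPM in Het (median 88.9, mean 90.3 ± 17.2, n = 6). Of the Het libraries, 3 of 6 lay above the highest WT library and the other 3 within the WT range. The difference was 0.24 (SE 0.11, interval 0.01 to 0.46, adjusted p = 0.335), and by p Nfix ranked 1535th of 12870 genes. Nfia ran from 101 to 146 CPM in WT (median 117, mean 120 ± 15.6) and from 104 to 184 CPM in Het (median 138, mean 139 ± 26.1), a difference of 0.20 (SE 0.12, interval -0.05 to 0.46, adjusted p = 0.476). Nfib ran from 53.3 to 71.0 CPM in WT (median 62.0, mean 62.0 ± 7.49) and from 51.2 to 85.9 CPM in Het (median 68.8, mean 67.5 ± 13.7), a difference of 0.11 (SE 0.09, interval -0.07 to 0.28, adjusted p = 0.606).

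The direction was not the same in both identifier prefix sets of the PFC. In the set with 4 Het and 3 WT libraries, Het exceeded WT by 0.38 for Nfia, 0.28 for Nfib, 0.34 for Nfic and 0.33 for Nfix. In the set with 2 against 2, all labelled male, the differences were -0.11 for Nfia and -0.11 for Nfib, and 0.16 for Nfic and 0.18 for Nfix. The remaining WT library stands alone with its prefix.

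**Figure D3:**
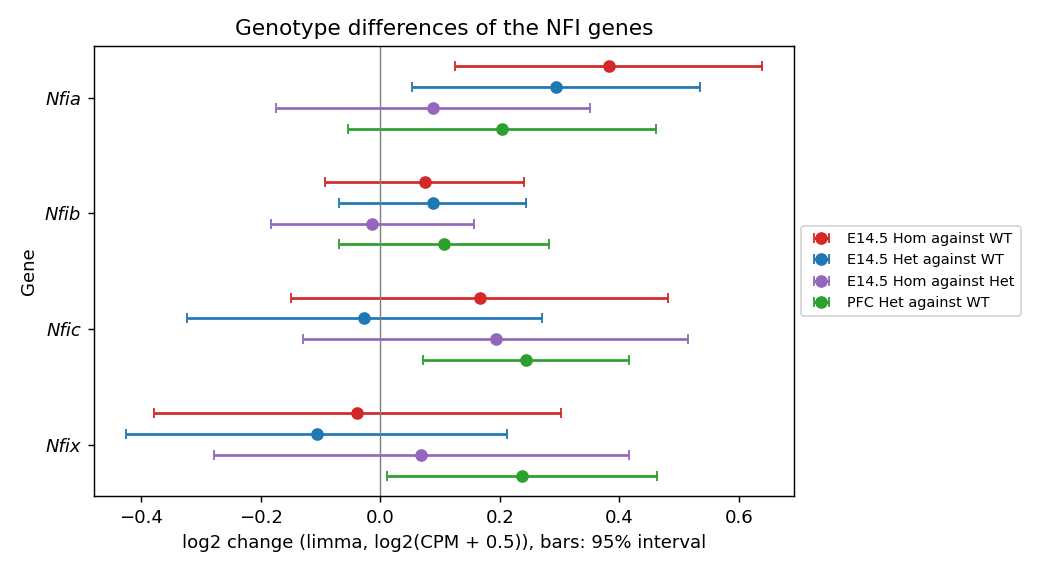
Log2 change of each NFI gene (horizontal axis, log2(CPM + 0.5) scale) in 4 genotype comparisons, with 95% intervals from limma. The Nfia interval for Hom against WT runs from 0.13 to 0.64 and the Nfic interval in the PFC from 0.07 to 0.42.

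Among the members, Nfib had the largest adult difference by labelled sex. The 6 female libraries had 71.0, 54.1 and 69.5 CPM (WT F04, F10 and F06) and 85.9, 73.0 and 77.2 CPM (Het F02, F04 and F07). The 6 male libraries had 63.4, 60.5 and 53.3 CPM (WT M03, M07 and M11) and 64.6, 51.2 and 53.2 CPM (Het M05, M08 and M09). Apart from WT F10, every female library was above every male library. Male against female gave -0.30 (SE 0.09, interval -0.48 to -0.13, adjusted p = 0.0701), where 1.09% of all genes were called. With single libraries left out in turn, it passed only without WT F10 (-0.38, adjusted p = 0.0163). The prefix set of 4 libraries holds males only, and the set of 7 holds 5 females and 2 males, so labelled sex and prefix are partly confounded. With the prefix as a block the difference was -0.40 (adjusted p = 0.209). For Nfia, Nfic and Nfix the sex differences were -0.02, 0.01 and -0.14, with adjusted p of 0.95, 0.961 and 0.523.

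The 4 members were also read by labelled sex in the adult, and the interaction of genotype and sex passed for none. For Nfia, female Het libraries had 184, 129 and 144 CPM (F02, F04 and F07) and female WT libraries 120, 111 and 101 CPM (F04, F10 and F06), without overlap. Nfib (73.0 to 85.9 against 54.1 to 71.0 CPM) and Nfic (32.9 to 39.1 against 27.1 to 32.1 CPM) also did not overlap in females, and Nfix (78.2 to 113 against 68.8 to 87.1 CPM) did. Among all genes, 11.6% had each female Het library above each female WT library. For Nfia, male Het libraries had 139, 104 and 137 CPM (M05, M08 and M09) against 146, 115 and 127 CPM in WT males (M03, M07 and M11). The interaction, the male minus the female genotype difference, was -0.48 for Nfia (SE 0.18, interval -0.87 to -0.10, adjusted p = 0.521) and -0.35 for Nfib (SE 0.16, adjusted p = 0.538). It was -0.23 for Nfix and -0.14 for Nfic, with adjusted p of 0.783 and 0.839. With the prefix as a block the Nfia interaction was -0.54 (adjusted p = 0.473). With limma, 0 genes of 12870 were called for the interaction (0%), 1092 had an unadjusted p under 0.05 (8.48%), and voom also called 0.

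**Figure D4:**
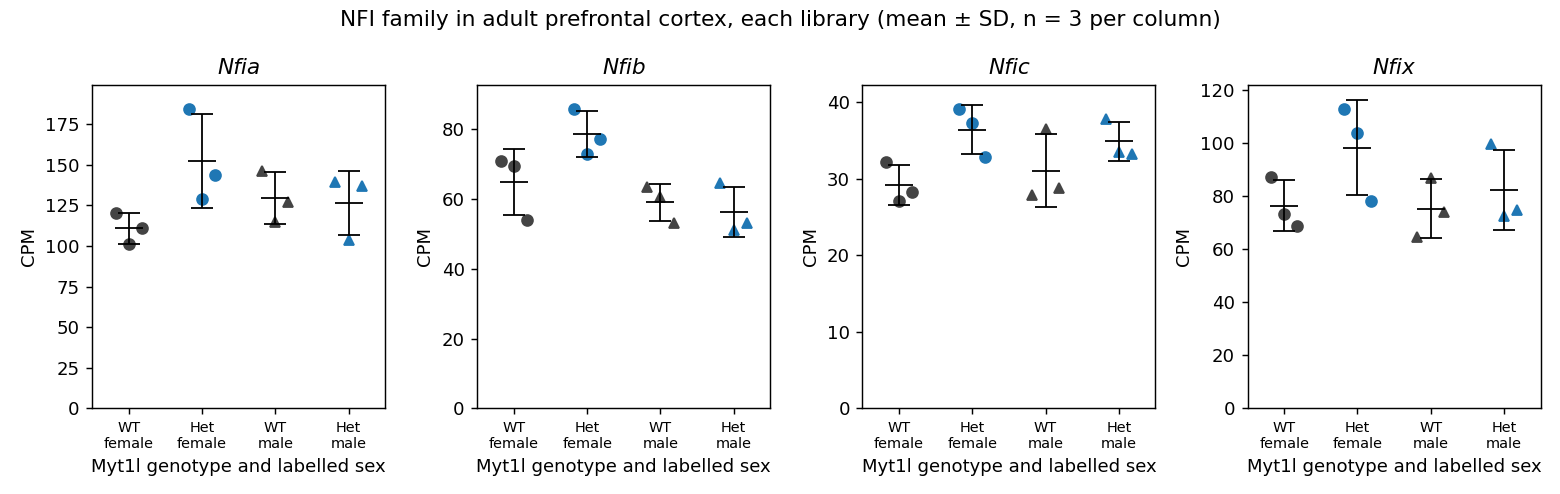
CPM of each NFI gene (vertical axes) in adult PFC by genotype and labelled sex (horizontal axes), 1 point per library with mean ± SD, 3 libraries per column. Female Het libraries of Nfia (129 to 184 CPM) lie above female WT libraries (101 to 120 CPM), and male columns overlap.

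Across all libraries, 1 of 12 pairs of members tested over both tissues passed. In the PFC, Nfic and Nfix varied together over 12 libraries (Pearson's r = 0.86, permutation p = 4.6e-04, adjusted p = 0.00552; Spearman's rho = 0.80, permutation p = 0.00291, adjusted p = 0.0349). Without the 2 libraries farthest from the median, r was 0.85. Within the largest prefix set of 7 libraries it was 0.89 (permutation p = 0.00264), and for deviations from the genotype means it was 0.83. The transcripts of both genes have a GC content near 57%, and with each library corrected for GC content and length r was 0.84 (permutation p adjusted over the 12 pairs = 0.00252). At E14.5 the same pair gave r = 0.01 over 16 libraries (permutation p = 0.962, adjusted p = 0.962) and -0.07 without the 2 that went against their labelled sex. The difference between tissues was not tested.

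Nfia and Nfib, the pair with the lower GC content, gave r = 0.60 over 16 E14.5 libraries (permutation p = 0.014, adjusted p = 0.0769; rho = 0.63, permutation p = 0.0109, adjusted p = 0.0656), 0.67 without the 2 farthest libraries and 0.48 within the larger prefix set. Nfib and Nfix at E14.5 gave r = 0.58 (permutation p = 0.0192, adjusted p = 0.0769; rho = 0.50, permutation p = 0.0498, adjusted p = 0.15), 0.40 without the 2 farthest libraries and 0.54 in the larger prefix set. Both pairs passed without the 2 libraries that went against their labelled sex, an alternative added after seeing the data. Over those 14 libraries Nfia and Nfib gave r = 0.73 (permutation p = 0.0027, adjusted p = 0.0108) and Nfib and Nfix 0.73 (permutation p = 0.00255, adjusted p = 0.0108). With the GC and length correction, the E14.5 Nfib and Nfix value was 0.76 (permutation p adjusted over the 12 pairs = 0.00252). The Nfia and Nfib value fell to 0.55 (permutation p adjusted over the 12 pairs = 0.106). In the PFC, Nfib and Nfix fell to 0.59 under this correction (permutation p adjusted over the 12 pairs = 0.132). In the PFC, Nfib and Nfix gave r = 0.64 (permutation p = 0.0262, adjusted p = 0.0787; rho = 0.64, permutation p = 0.0295, adjusted p = 0.118), 0.44 without the 2 farthest and 0.75 within the prefix set of 7.

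**Figure D5:**
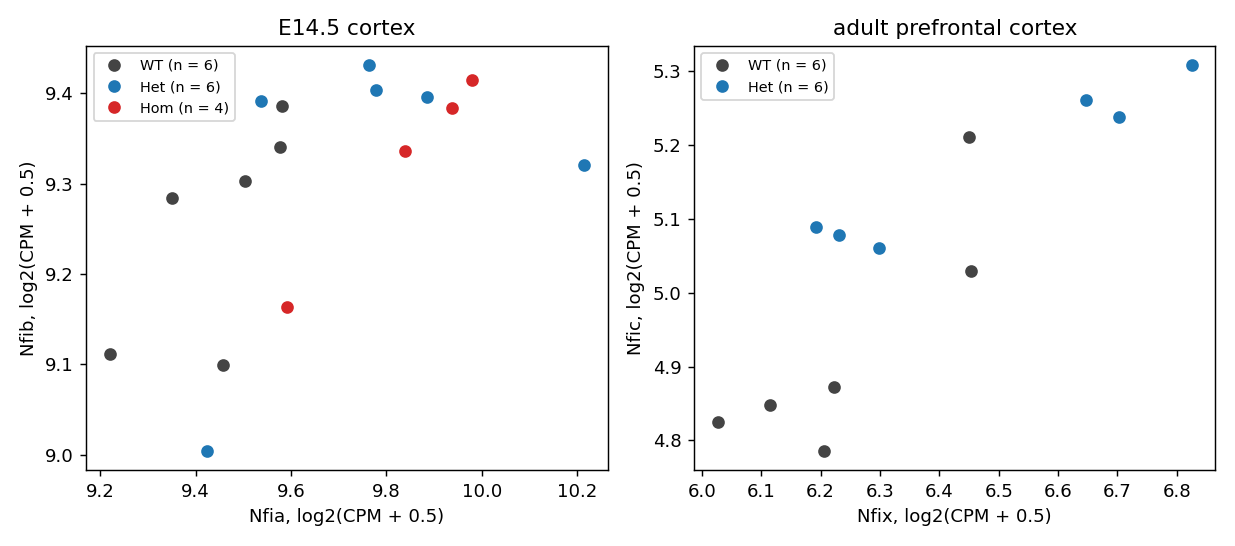
Nfib against Nfia in 16 E14.5 libraries (left) and Nfic against Nfix in 12 PFC libraries (right), both axes log2(CPM + 0.5), 1 point per library coloured by genotype. The right panel shows the pair with r = 0.86 and the left the pair with r = 0.60.

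As a description without a test, the genes most like each member were ranked by Pearson's r across all libraries of a tissue, among 9261 genes at E14.5 and 10270 in the PFC with a mean of at least 5 CPM. These points share libraries and the authors' adjustment. At E14.5, Arf6 (r = 0.93), Gsk3b (0.92), which encodes a kinase of WNT signalling, and Ranbp1 (0.92) led for Nfia, and Eif4a1 (0.85), Nudt2 (0.81) and Haus3 (0.81) for Nfib. Palm (0.87), Aff4 (0.82) and Baz1b (0.82) led for Nfic, and Srrm4 (0.89), a neuronal splicing regulator, Tmem132b (0.89) and Rai1 (0.88) for Nfix. In the PFC, Skil (0.93), Cacnb4 (0.93) and Spry2 (0.92) led for Nfia, and Adgrl1 (0.97), Dgkh (0.96) and Arid1a (0.95) for Nfib. Rab11fip3 (0.94), Hipk4 (0.90) and Chrnb2 (0.88) led for Nfic, and Hipk4 (0.96), Cacng2 (0.94) and Opcml (0.93) for Nfix. Among the other 10269 genes, Nfix ranked 9th for Nfic and Nfic 16th for Nfix. At E14.5 Nfib ranked 596th of 9260 genes for Nfia.

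Genes placed by published work downstream of NFI or beside it were then read in the same fits. Of the progenitor genes linked to NFI in published work, Hes1, Sox9, Ezh2 and Insc, 3 were tested at E14.5. Of these, 0 were called in Hom or Het by limma or by voom. Hes1, a NOTCH effector that keeps radial glia undifferentiated, had the smallest p, with 20.7 ± 0.866 CPM in WT (n = 6) and 25.4 ± 2.22 in Hom (n = 4), a log2 difference of 0.29 (adjusted p = 0.0842). Sox9 gave 0.21 (adjusted p = 0.358) and Ezh2, a histone methyltransferase, 0.07 (adjusted p = 0.639) in Hom. The median was 0.21 in Hom against 0.02 over all genes. At an unadjusted p under 0.05, 1 of the 3 passed in Hom and 1 in Het, where 23.2% and 22.3% of all genes did. In the PFC 0 of 4 were called by either tool, and 0 passed at an unadjusted p under 0.05.

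Of 10 radial glia genes, 1 was higher and 1 lower in Hom. Sox2, a stem cell transcription factor, had 24.6 ± 2.83 CPM in WT and 37.7 ± 2.22 in Hom (0.59, adjusted p = 0.0137). Prom1 had 57.5 ± 6.49 and 43.2 ± 7.43 CPM (-0.43, adjusted p = 0.0324, or 0.06 with the directions removed by RUVr as covariates). The list median was 0.14 against 0.02 over all genes, of which 3.23% were called higher and 4.37% lower in Hom, and 2.84% and 2.98% in Het. In Het 0 of 10 were called by limma or voom, and 4 had an unadjusted p under 0.05, where 22.3% of all genes did. Without the libraries that went against their labelled sex 1 was lower in Het.

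Of 16 astrocyte and glial genes linked to NFI, 13 were tested at E14.5. In Hom and in Het 1 was called, where 7.6% and 5.83% of all genes were, so the count is not read as particular to this list. Aldoc, a glycolytic enzyme of radial glia and astrocytes, fell from 881 ± 87.7 CPM in WT (n = 6) to 654 ± 21.5 in Hom (n = 4; -0.42, adjusted p = 0.00216) and 668 ± 54.1 in Het (n = 6; -0.39, adjusted p = 0.00361). The WT libraries (772 to 995 CPM) lay above all Het (618 to 739) and Hom (631 to 680) libraries, which held for 1.33% of all genes in Het and 5.11% in Hom. Without the libraries that went against their labelled sex, Het against WT was -0.34 (adjusted p = 0.00934). The median was -0.23 in Hom and -0.07 in Het, against 0.02 and 0.03 over all genes, and both comparisons share the WT libraries. In the PFC 0 of 16 were called by limma or voom and 0 had an unadjusted limma p under 0.05, with a median of -0.02. The 4 with the smallest p went both ways, with Aldh1l1, an astrocyte enzyme, at -0.14, Glul, the glutamine synthetase, at -0.11, Apcdd1, a WNT inhibitor, at 0.34 and Zcchc24 at 0.21 (adjusted p of 0.376, 0.386, 0.386 and 0.375).

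Of the gliogenic factors and partners of NFI, 11 of 12 were tested at E14.5. In Hom 2 were higher, Nr2f1, a regulator of cortical area identity (38.9 ± 6.68 to 61.2 ± 12.1 CPM, 0.65, adjusted p = 0.0147), and Smad4, the shared mediator of BMP and TGF-beta signalling (43.9 ± 4.03 to 54.2 ± 5.37 CPM, 0.31, adjusted p = 0.0429). In Het 1 was higher, Pou3f2, a neuronal transcription factor (47.2 ± 4.54 to 62.2 ± 5.20 CPM, 0.36, adjusted p = 0.0108; 0.34, adjusted p = 0.0203, without the libraries against their labelled sex). With each library centred on its median, the Hom count was 1, without Smad4. Across all genes, 3.23% were called higher in Hom and 2.84% in Het. The list medians were 0.21 in Hom and 0.13 in Het, the same values as for the progenitor genes above. The lists share genes, such as Hes1 between progenitor and radial glia genes, so their medians are not separate evidence. In the PFC 0 of 12 were called by limma or voom, and 4 had an unadjusted p under 0.05, where 13.6% of all genes did. The median was 0.16 against 0.01 over all genes.

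Of the neuronal maturation genes bound by NFI in cerebellar granule neurons, 4 were tested in each tissue and 0 were called in Hom, Het or the PFC by limma or voom. At an unadjusted p under 0.05, 0 passed at E14.5 and 1 in the PFC, where 13.6% of all genes did. Cntn2, an axonal adhesion molecule, gave 0.19 in Hom (adjusted p = 0.286), and Wnt7a 0.41 in the PFC (adjusted p = 0.249).

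Some markers of other lists were called at E14.5, where Nfia was not called in the fit of all libraries. Across all genes, 3.23% were called higher in Hom and 2.84% in Het. Among cortical identity genes, Emx2, a regulator of cortical patterning, was higher in Hom (0.56, adjusted p = 0.00736). Tbr1 was higher in Hom (0.45, adjusted p = 0.0324) and in Het (0.55, adjusted p = 0.00982; 0.66, adjusted p = 0.00203, without the libraries against their labelled sex). With each library centred on its median, Tbr1 in Hom had an adjusted p of 0.0505. Of 9 ventral telencephalon and interneuron genes tested, 1 was higher in Hom (Dlx1, 0.89, adjusted p = 0.0262, or 0.0512 with the RUVr directions as covariates). That list summed to 34.3 to 67.3 CPM in WT, 44.6 to 107 in Het (from 46.2 without those libraries) and 42.9 to 135 in Hom, with Nkx2-1 not listed. Choroid plexus genes summed to 1405 to 3991 CPM in WT, 3003 to 5211 in Het and 1593 to 2889 in Hom, with 0 of 5 called by limma or voom. At an unadjusted p under 0.05, 2 of them passed in Het and 0 in Hom, where 22.3% and 23.2% of all genes did. The part of these markers in the Nfia difference was not tested.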

How the data were processed

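Total RNA was isolated using reagents from Zymo and sequenced from SMARTer Ultra Low libraries, per the labels' protocols. The tools in the submitters' processing notes are STAR, HTSeq, Bowtie2 and Trimmomatic, with build mm10, and what each did is not given in the sources used here. The authors deposited 1 table per tissue of log2 CPM, named as values after RUVr, a method that removes unwanted variation. Read from the values, the prior count is 2 and each library is scaled to 1 upper quartile. All values invert to whole numbers (100% within 0.01), but these are adjusted and are not raw counts. Their totals, 27827467 to 30811856 at E14.5 and 19601294 to 21275162 in the PFC, are therefore no depth, which is unknown.

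CPM was recovered, and log2(CPM + 0.5) was fitted with limma 3.58.1 in R 4.3.3 (trend, robust) with genotype and labelled sex, all libraries of a tissue in 1 fit. Folds on this scale understate changes of low genes. The filter asked for 1 CPM or more in 4 or more E14.5 or 6 or more PFC libraries and kept 12429 and 12870 genes, and p-values were adjusted over all of them (Benjamini-Hochberg). A gene is called, higher or lower at an adjusted p under 0.05. Annotation matched 13840 and 14098 genes. Correlations used 100000 permutations, two-sided, adjusted over 12 pairs. The script was tested on simulated data. Alternatives covered pseudocounts, filters, scaling, covariates, GC and length correction, and single libraries left out.

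The members and gene lists were chosen with earlier results of these data known. Named were the members, Myt1l, the 3 genes most like each member, and from each list the called genes or otherwise up to 4 with the lowest p; cell type lists are named where they bear on a member's result. Ddx3y was read as a check of labelled sex. Some genes that met this rule, and the counts that need them, are not reported here.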

Additional observations from a re-analysis of the deposited data

Results flagged for a closer look

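Among 20 groups of a member's values in 1 genotype group of 1 tissue, 1 held a library far from the others. Nfib in the library labelled Het M07 of the E14.5 cortex had 513 CPM, and its gap to the nearest of the other Het libraries on the log2(CPM + 0.5) scale was 0.743 of the group's range on that scale, over the critical value of 0.625 for 6 libraries. About 1 in 20 such groups is expected to pass by chance. The same library had the lowest Nfia (686 CPM) and Nfix (375 CPM) levels of the Het group.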

How the results depend on the processing

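No called value turned its direction under the alternatives run. Nfia in Hom against WT (0.38, adjusted p = 0.0635) passed with only the compared groups (0.39) or without the libraries against their labelled sex (0.39). Leaving out single libraries gave 0.33 to 0.46 for it, 0.23 to 0.35 for Nfia in Het against WT, and -0.38 to -0.26 for Nfib in male against female. The Nfib and Nfix correlation at E14.5 passed after the GC and length correction (r = 0.76) and without the libraries against their labelled sex (0.73). Nfia and Nfib at E14.5 passed without those libraries (0.73) but not after the GC and length correction (0.55). Both alternatives were chosen after seeing the data.

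Counts of called genes moved more. Hom against WT (944) gave 511 with the removed RUVr directions as covariates and 468 with plain eBayes. Het against WT (724) gave 335 and 225, 389 with only the compared groups, and 1087 without the libraries against their labelled sex. Hom against Het (1) gave 0 with the prefix block, RUVr directions, plain eBayes, GC correction or only the compared groups. In the PFC, Het against WT (52) gave 25 with voom, 2 without sex, 19 with the prefix block, 17 with RUVr directions and 0 with plain eBayes. Male against female (140) gave 9 with the prefix block, 62 with RUVr directions, 10 with plain eBayes and 212 with GC correction, and the interaction (0) gave 1 with GC correction. Leaving out single libraries gave 489 to 1105 for Hom against WT, 131 to 1176 for Het against WT, 0 to 1 for Hom against Het, 3 to 130 for the PFC, 16 to 277 for sex and 0 to 13 for the interaction. With each library centred on its median, the split of higher and lower calls went from 401 and 543 to 294 and 746 (Hom), from 353 and 371 to 213 and 509 (Het), from 23 and 29 to 20 and 51 (PFC) and, for sex, from 85 and 55 to 119 and 36 with voom. With GC correction it was 231 and 556 (Hom), 112 and 387 (Het) and 23 and 18 (PFC). Of the list genes named, Smad4 and Tbr1 (Hom) lost their calls under centring (adjusted p = 0.0734 and 0.0505), and Smad4, Tbr1, Prom1 and Dlx1 with RUVr directions (0.088, 0.0562, 0.06 and 0.0512). The causes were not tested. Sequencing depth, which is unknown, limits what can be said of Nfic at E14.5. No paired analysis was possible because the title numbers count the libraries of all genotypes within an identifier prefix and tie no library of one genotype to one of another.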
